A study of Homo sapiens with 9 samples.

Results

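RNA polymerase II peaks present in only 1 of 3 conditions are described here: 413 intervals that were found after knockdown of the splicing factor U2AF1 and that shared no base with a peak of the control or of the DHX9 knockdown. They are called U2AF1-only peaks below and were chosen by that overlap rule from the 1730 peaks of the U2AF1 knockdown list, of which they made up 23.9%; the 3 lists together hold 8930 peaks. The samples were HEK293T cells, a human embryonic kidney line, carrying a control shRNA (shCtrl, genotype labelled wildtype), a U2AF1 knockdown or a DHX9 knockdown. Chromatin was precipitated with an antibody to POLR2A, which is the catalytic subunit of the polymerase, and sequenced (ChIP-seq), with 2 ChIP replicates and 1 input in each condition. There is 1 peak list for each condition, with 2757 control peaks and 4443 DHX9 knockdown peaks beside the U2AF1 list. No value below therefore has a replicate error, no difference was tested across replicates, and the efficiency of the knockdowns cannot be read from peak lists. The hairpin sequences and the time after knockdown are not given in the sources used here.

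U2AF1 is the small subunit of the factor that marks the 3′ end of introns: it contacts the AG dinucleotide at the 3′ splice site, beside the polypyrimidine tract bound by its partner U2AF2, and so helps the U2 small nuclear ribonucleoprotein to bind the branch point. DHX9 is a helicase that unwinds RNA duplexes and hybrids of RNA and DNA. Splicing is largely completed while the polymerase is still transcribing, and the polymerase typically piles up just downstream of promoters before it is released into the gene body.

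Because whole groups of the 413 peaks lay on near-identical repeated sequence, examples of these sequences are shown first. Peaks were put in 1 family when they shared at least 30 different words of 20 bases on either strand, and a family needed at least 3 separate loci over the 3 lists. All coordinates are GRCh38 (hg38), counted from 1, and the letters run 5′ to 3′ on the strand named. Capitals mark each copy of the 20-base word found in most peaks of the family. The first pair, 120 bases each, comes from a family in centromeric arrays, from the U2AF1-only peaks of highest fold that hold the word.

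centromere of chromosome 5 (chr5:49065986-49066105, + strand): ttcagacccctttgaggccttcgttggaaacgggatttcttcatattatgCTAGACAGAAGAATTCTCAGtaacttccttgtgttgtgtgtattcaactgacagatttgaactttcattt
centromere of chromosome 1 (chr1:123497625-123497744, + strand): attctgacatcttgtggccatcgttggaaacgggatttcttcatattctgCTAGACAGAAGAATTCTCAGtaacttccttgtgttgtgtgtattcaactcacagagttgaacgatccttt

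These are letters of alpha satellite, the tandem repeat of human centromeres; the name is background, and no repeat annotation was used. A further 2 examples show shorter tandem repeats, one in an intron of TTC34 and one beside the centromere of chromosome 2.

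TTC34 (chr1:2697664-2697783, - strand): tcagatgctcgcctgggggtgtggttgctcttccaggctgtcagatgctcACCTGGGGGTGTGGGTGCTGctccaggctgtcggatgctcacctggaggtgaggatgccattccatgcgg
pericentromere of chromosome 2 (chr2:91510643-91510762, - strand): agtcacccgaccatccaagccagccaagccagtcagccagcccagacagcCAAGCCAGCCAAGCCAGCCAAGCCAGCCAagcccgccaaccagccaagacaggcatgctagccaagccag

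For the peaks at transcript starts, 3 examples of sequence around the start are given. Shown first are the 120 bases before the annotated start of FAM43A, of which 54 lie in the peak. For the EXD3 and UBE2D1 peaks the longest stretch outside untranslated exons is shown. The UBE2D1 stretch lies before the start, and the EXD3 stretch lies downstream of the start, in an intron. GC boxes (GGGCGG or its reverse complement CCGCCC) and ETS cores (CCGGAA or TTCCGG) are in capitals.

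FAM43A (chr3:194685763-194685882, + strand): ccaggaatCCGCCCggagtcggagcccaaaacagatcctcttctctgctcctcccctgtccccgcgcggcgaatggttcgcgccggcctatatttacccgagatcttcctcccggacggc
EXD3 (chr9:137422948-137423113, - strand): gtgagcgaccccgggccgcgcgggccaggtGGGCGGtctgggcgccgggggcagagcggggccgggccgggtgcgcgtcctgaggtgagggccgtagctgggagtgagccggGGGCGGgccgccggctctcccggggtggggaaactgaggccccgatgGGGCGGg
UBE2D1 (chr10:58334892-58334978, + strand): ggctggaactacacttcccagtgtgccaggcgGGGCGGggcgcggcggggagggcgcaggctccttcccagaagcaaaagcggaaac

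The GC box occurred 3 times in the EXD3 stretch and 1 time in each of the others, and none of the 3 stretches held the ETS core. The GC box of the FAM43A stretch lay upstream of the peak and outside it.

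The 413 peaks were weak. Fold enrichment, the authors' ratio of signal to background at the summit, had a median of 4.03 (quartiles 3.51 and 4.71) and a maximum of 8.19, against a median of 5.02 (4.12 and 6.20) and a maximum of 112.5 in the 1317 other peaks of the list. The median −log10 q was 3.48 against 7.02, and the median width 249 bp against 303 bp. Since the rule picked peaks by whether they were called, these values describe the choice and support nothing. The fold and p-value of each U2AF1 peak could be turned back into a whole number of fragments piled up at the summit, for 99.8% of the list, under the Poisson test with 1 pseudocount that the peak caller's values follow. A U2AF1-only peak held a median of 16 fragments (quartiles 13 and 23) over a median background of 2.73 fragments. At the lowest background in the list, 2.05 fragments, 80 of the 413 peaks were found, against 95 of 1313 other peaks. A peak there with 10 fragments had a fold of 3.60, one with 16 fragments a fold of 5.57 and the FAM43A peak, with 24 fragments, a fold of 8.19. The exact Poisson 95% interval around 16 fragments runs from 9.15 to 26.0 and around 10 fragments from 4.80 to 18.4, which covers counting error only. The number of fragments behind the control peaks could not be recovered, since 1.16% of that list gave whole numbers.

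**Figure D1:**
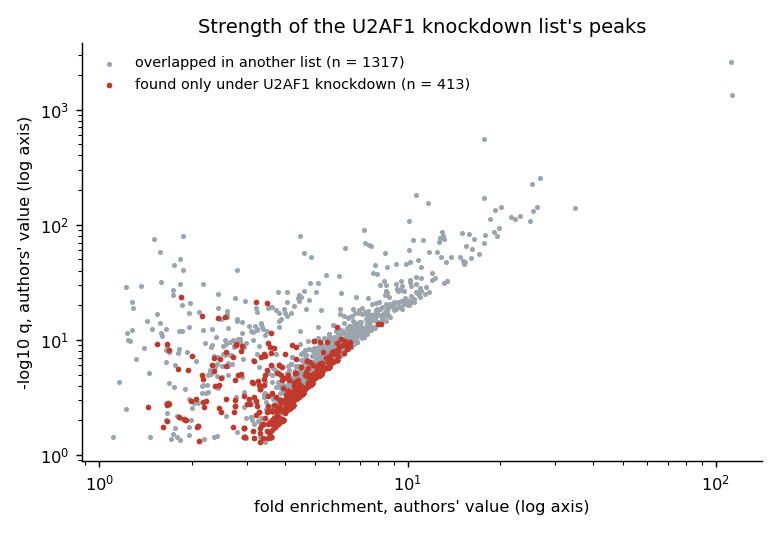
Fold enrichment against −log10 q for every peak of the U2AF1 knockdown list, both as deposited and on log axes. The 413 peaks found only under U2AF1 knockdown (red) end at a fold of 8.19, while the 1317 peaks overlapped in another list (grey) reach 112.5.

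Most of the 413 peaks had no neighbour in the other lists. A control or DHX9 knockdown peak lay within 100 bp of 7 of them, within 500 bp of 29, within 1000 bp of 40 and within 10000 bp of 90. For the 408 with any such peak on the same sequence the median distance was 75448 bp. The closest were all at starts. The peak at U2SURP, which encodes a protein of the U2 small nuclear ribonucleoprotein (chr3:143001541-143001769, fold 4.26), was 7 bases from a DHX9 knockdown peak. The peak at EOGT, a glycosyltransferase gene, was 22 bases from a DHX9 knockdown peak, that at RDH14, a retinol dehydrogenase gene, 40 bases from a control peak, and that at NFAT5, a transcription factor of the osmotic stress response, 47 bases from a DHX9 knockdown peak. The SLC12A2-DT peak was 80 bases from one. Just outside the rule, the smallest overlaps that kept a peak out were 9 bases in an intron of TTC34, 13 bases at ENSG00000283360 and 15 and 25 bases near the ribosomal RNA genes RNA5-8SN2 and RNA5-8SN3 (2136 and 3809 bp past their starts), all with DHX9 knockdown peaks. The TTC34 peak (chr1:2654876-2655181), outside the rule, had a fold of 3.84, beside 4.26 for the U2SURP peak inside it.

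The U2AF1-only peaks lay away from transcript starts more often than the rest of their list. Summits counted as start-site when they were within 1000 bp of a transcript start in GENCODE version 44, as gene-body when farther away inside a gene, and as outside genes otherwise. Of the 385 peaks on annotated sequence, 189 were at start sites (49.1%, 95% Wilson interval 44.1 to 54.1), 105 in gene bodies (27.3%, 23.1 to 31.9) and 91 outside genes (23.6%, 19.7 to 28.1). In the other peaks of the list 88.6% were at start sites, 3.86% in gene bodies and 7.55% outside genes. The difference was −39.5 percentage points at start sites (95% Newcombe interval −44.7 to −34.2), 23.4 points in gene bodies (19.04 to 28.2) and 16.1 points outside genes (11.8 to 20.8). These intervals treat peaks as independent and cover counting error only. Read the other way, U2AF1-only peaks made up 14.6% of the list's start-site peaks, 68.6% of its gene-body peaks and 49.2% of its peaks outside genes.

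**Figure D2:**
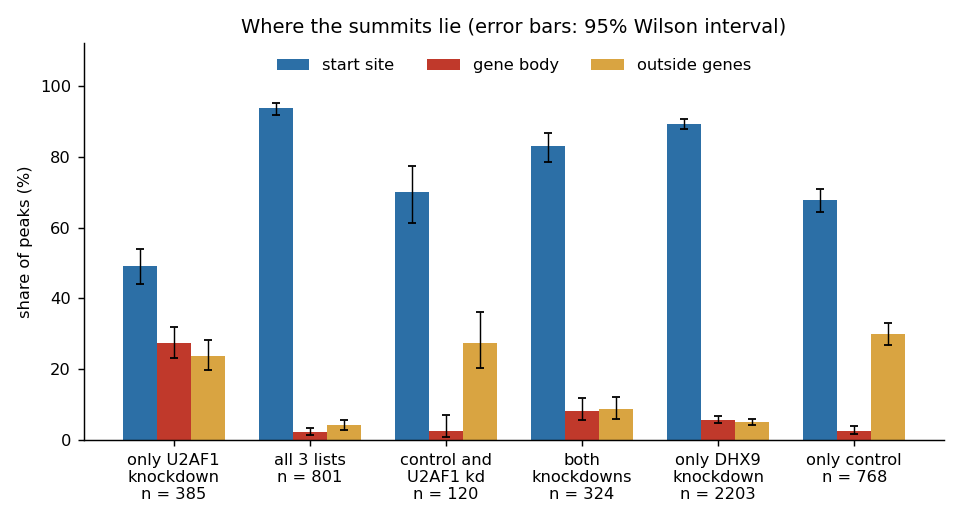
Share of peaks with a summit at a start site, in a gene body or outside genes, in percent of the peaks on annotated sequence, for 6 groups of peaks, with 95% Wilson intervals. Peaks found only under U2AF1 knockdown had 49.1% at start sites, and the other groups had 67.7 to 93.6%. Peaks found only in the control had 29.8% outside genes, above the 23.6% of the U2AF1-only peaks.

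The peaks found only under DHX9 knockdown did not share this distribution. Of 2203 such peaks on annotated sequence 89.3% were at start sites, so the U2AF1-only peaks differed from them by −40.2 points (−45.3 to −35.0). The DHX9-only peaks numbered 2248 of the 4443 in their list. Their median fold there, 4.86, is not on 1 scale with folds of the U2AF1 list. Peaks common to both knockdowns and absent from the control had 83.0% at start sites, a difference of −33.9 points (−40.1 to −27.2). Peaks found only in the control had 67.7% at start sites, 2.47% in gene bodies and 29.8% outside genes. Against them the U2AF1-only peaks differed by −18.6 points at start sites (−24.5 to −12.6), 24.8 points in gene bodies (20.4 to 29.5) and −6.18 points outside genes (−11.4 to −0.708). Peaks shared with the control only had 70.0% at start sites, 2.50% in gene bodies and 27.5% outside genes. A high share outside genes was thus not particular to the U2AF1-only peaks, while their gene-body share was above that of each of these groups. Strength moved with location within the U2AF1 list, so the shares were also compared within 3 groups of near-equal size by fold. In the highest group (fold 5.39 and above) 73.2% of the 41 U2AF1-only peaks were at start sites against 96.0% of 521 others. In the middle group the shares were 64.7% of 136 against 94.8% of 426, and in the lowest group (fold up to 4.18) 34.1% of 208 against 66.8% of 298. The start-site share was thus lower in U2AF1-only peaks in each of the 3, and for both kinds of peak it was lowest among the weakest peaks. The others here are again peaks that overlapped another list by the rule, so this contrast too describes the choice in part.

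At start sites, 156 of the 189 peaks belonged to protein-coding genes, 20 to long noncoding RNA genes, 7 to pseudogenes and 4 to 5S ribosomal RNA genes. None lay nearest to a small nuclear or small nucleolar RNA start, where 49 and 6 of the other 1103 start-site peaks lay. Such genes also carried peaks in the control and DHX9 knockdown lists, so this absence describes the choice and supports nothing. The strongest was at FAM43A (chr3:194685829-194686149), with a fold of 8.19, 24 fragments and rank 139 in the list. Next came EXD3, an exonuclease-domain gene (chr9:137422948-137423219), with a fold of 7.99 and 25 fragments. The nearest peak of either other list was 35854 bp away for EXD3 and 101722 bp away for FAM43A. EMC9, a subunit of the endoplasmic reticulum membrane complex, had a fold of 6.48. CARNMT1, a carnosine methyltransferase, stood at 6.36, PPFIA1, which encodes the adhesion scaffold liprin-alpha, at 6.35 and UBE2D1, a ubiquitin-conjugating enzyme, at 6.17. PHKA1, a regulatory subunit of phosphorylase kinase, RHEB, the GTPase that activates mTORC1, and SRD5A1, a steroid reductase, followed at 5.97, 5.96 and 5.94. LDLRAD3, a membrane receptor gene, and NSF, the ATPase that takes apart SNARE complexes, both stood at 5.89 with 17 fragments. All of the 32-base words of the NSF peak had a second copy in the reference, as did 51.0% of those at PHKA1 and 61.1% at RHEB, so reads there could come from more than 1 locus. The other peaks named here had at most 0.485% of such words.

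The start-site peaks sat where polymerase peaks of the list generally sat, with a wider spread. Their median summit was 45 bp downstream of the start (quartiles −14 and 108) against 40 bp (−1 and 86) for the others. A summit within 100 bp of the start was found in 56.6% of them against 69.4%, a difference of −12.8 points (−20.4 to −5.43). A second start on the opposite strand was found at 30.7% against 33.3%, a difference of −2.59 points whose interval, −9.34 to 4.84, includes 0. GC skew of the coding strand, the excess of G over C in the first 500 transcribed bases and a sequence feature linked to R-loops, was positive at 61.4% against 68.3% (difference −6.89 points, −14.5 to 0.324), with medians of 0.0383 and 0.0577. Both groups had a median GC content of 73.0% in the 300 bases around the summit.

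**Figure D3:**
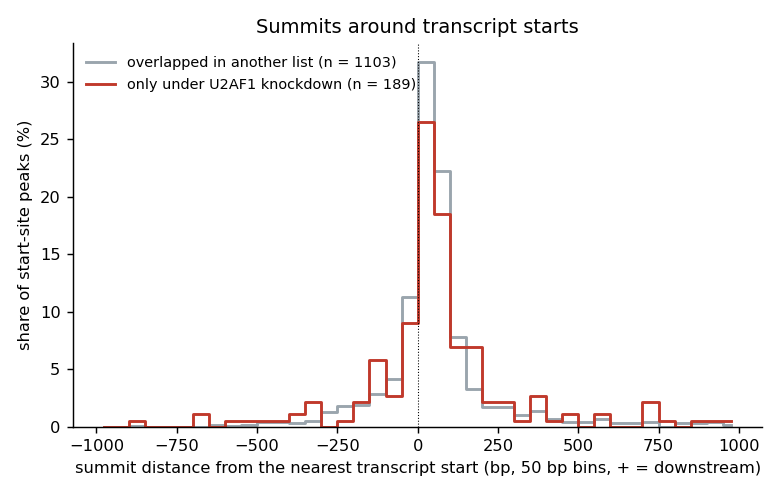
Distance of the summit from the nearest annotated transcript start, in 50 bp bins, as a share of the 189 start-site peaks found only under U2AF1 knockdown (red) and of the 1103 other start-site peaks of the list (grey). Both curves peak just downstream of the start, with medians of 45 and 40 bp, and the red curve has more of its area farther out.

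Motifs were searched as exact letters on both strands of the 300 bases around each start-site summit, and shares over the starts of all 20033 protein-coding genes, with 300 bases centred on the start, are given for scale. The GC box was present in 73.0% of the U2AF1-only start-site peaks and 76.7% of the others, with 54.3% over all starts. The CCAAT box (CCAAT or ATTGG) was present in 8.99% against 20.4%, a difference of −11.4 points (−15.5 to −5.97), with 33.8% over all starts. TATAAA or TTTATA was present in 3.17% against 7.89% (difference −4.71 points, −7.15 to −0.854), with 9.17% over all starts. For the ETS core the shares were 16.9% and 22.3%, for the E-box (CACGTG) 10.1% and 6.62%, for the CRE (TGACGTCA) 1.06% and 2.27% and for the NRF1 core (CGCATGCG) 1.59% and 3.63%. The intervals of these 4 differences all included 0. Windows centred on summits lie on average somewhat downstream of windows centred on starts, and a match is only a run of letters.

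Several gene groups that had peaks in the U2AF1 list had no U2AF1-only peak. A gene was counted when it was nearest to a start-site summit or held a gene-body summit; over all genes, 1368 had a peak of the U2AF1 list and 278 had a U2AF1-only peak. None of the 36 spliceosomal small nuclear RNA genes with a peak of the list had one. The same held for 21 replication-dependent histone genes and 17 cytosolic ribosomal protein genes. These groups had 36, 26 and 49 genes with a control peak and 38, 29 and 52 with a DHX9 knockdown peak. The rule leaves out any peak overlapped in another list, so these zeros describe the choice and support nothing. Smaller lists without one held 10 SR protein and hnRNP, 9 integrated stress response and 6 immediate early genes. Oxidative phosphorylation and small nucleolar RNA genes had none in 6 each. Pausing and elongation factors, DEAD and DEAH box helicases and the proteasome had none in 5 each. RNA polymerase II subunits (3), U2 and 3′ splice site factors (2), DNA replication and cell cycle genes (2) and aminoacyl-tRNA synthetases (1) also had none. Among the R-loop enzymes, 1 of 5 had a U2AF1-only peak. This was TOP1, the topoisomerase that relaxes supercoils ahead of polymerase (chr20:41028826-41029108, fold 5.32, summit 6 bp before the start). EIF2AK3, the stress kinase PERK, was the 1 of 8 translation factor genes, with a fold of 5.29. HSPD1, the mitochondrial chaperonin, with 4.66, and DNAJC25, a J-domain gene, were 2 of 8 heat shock chaperone genes. MRPL13 and MRPL33, proteins of the mitochondrial ribosome, were 2 of 4 with folds of 4.03 and 2.94.

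Of 24 solute carrier genes 5 had a U2AF1-only peak: SLC2A6 (4.37), SLC7A10 (4.42), SLC25A12 (4.04) and SLC25A39 (3.63) at the start and SLC22A3 (4.18) in an intron. Of 30 genes of ubiquitin ligases, conjugating enzymes and proteases 5 had one, UBE2D1, MARCHF8 (4.58), TRIM59 (4.14), UBE2A (4.13) and, in a coding exon, TRIM38 (3.70). The developmental regulators FOXP4 (4.23) and PAX6 (3.56) were 2 of 8, and ZNF536 (4.63, intron) was 1 of 20 zinc finger genes. SLC25A12 also had a control peak and SLC25A39 a DHX9 knockdown peak that did not overlap. These lists were fixed with results of the same data known, and a list with 10 or fewer genes carrying a peak says little about its share.

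In gene bodies, 90 of the 105 U2AF1-only peaks had the summit in an intron, 10 in a coding exon, 3 in a noncoding exon and 2 in an untranslated exon. The intron share, 85.7%, was close to the 83.3% of the 48 other gene-body peaks and the 85.6% of the 125 found only under DHX9 knockdown. The summits were far from splice sites. Over 103 peaks in genes with introns, the median distance to the nearest annotated 3′ splice site of the gene was 5837 bp. To the nearest 5′ splice site it was 5305 bp. The other gene-body peaks of the list had similar medians, 6492 and 6082 bp, and those found only under DHX9 knockdown had 2893 and 3022 bp. Of the 103 summits, 10 had a 3′ splice site within 200 bp and 7 a 5′ splice site. The counts were 4 and 3 of the 46 other gene-body peaks, and 11 and 9 of 123 found only under DHX9 knockdown. Closeness to a splice site was thus not particular to the U2AF1-only peaks. The sites nearest to the summits in BRSK2, a brain kinase gene, and MTA1, a subunit of a histone deacetylase complex, are shown because U2AF1 contacts the intron's last AG, which is in capitals between 38 intronic and 20 exonic bases.

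BRSK2 (chr11:1445254-1445313, + strand): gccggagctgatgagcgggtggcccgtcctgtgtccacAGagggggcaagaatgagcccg
MTA1 (chr14:105466386-105466445, + strand): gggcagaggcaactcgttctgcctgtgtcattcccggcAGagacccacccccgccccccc

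The summit was 3 bases downstream of this site in BRSK2 (fold 3.93, 11 fragments) and 75 bases downstream in MTA1 (fold 4.88, 14 fragments). Other summits lay closer to a 3′ splice site than that in MTA1, on either side. Those in HSH2D and PKP4 were 4 and 29 bases downstream, and those in GALK1 and LINC02821 were 9 and 21 bases upstream. A peak of over 200 bp cannot place the polymerase on 1 side of a splice site.

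The strongest gene-body peaks lay largely on repeats. A GC-rich family is called here by 49 bp, the most frequent spacing between equal words of 12 bases around its summits, found in 5 of its 22 U2AF1-only peaks. Of the 10 highest gene-body peaks, 5 belonged to it: DNAJC25 (fold 6.22), CAPZA1, an actin-capping protein gene (6.10), SPATA6 (5.65), ARHGAP19 (5.29) and RBL1, which encodes the retinoblastoma-like protein p107 (5.24), all in introns. The TTC34 peak, in an intron with a 40 bp tandem repeat, had a fold of 5.89. LINC01606 (6.05) lay in an intron of a long noncoding RNA, on sequence that was repeated throughout. The other 3 were at ENSG00000249743, a long noncoding RNA (5.57), EPPK1, a plakin gene (5.56, coding exon, 82.7% repeated words) and CLEC11A, a growth factor gene (5.53, coding exon, no repeated word). The 70 gene-body peaks outside any family were spread over 65 genes, 56 of them in introns and 10 in coding exons, with a median fold of 3.82.

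Outside genes, 57 of the 91 peaks were in a family. The highest were on chromosome 15 near NUSAP1 (fold 5.89) and on chromosome 2 near NEURL3 (5.57), both of the GC-rich family. A peak on chromosome 18 (chr18:29723668-29723917) also had 5.57 and was in none. Centromeric peaks on chromosome 13 (chr13:16530047-16530325) and chromosome 7 (chr7:61515057-61515274) each had 5.24.

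Over the whole set, 117 of the 413 peaks (28.3%) fell in 24 families, against 22.6% of the other peaks of the list, a difference of 5.78 points (1.03 to 10.8). Within each location the order was the reverse. Of the start-site peaks 10 of 189 (5.29%) were in a family against 11.2% of the others (difference −5.95 points, −9.07 to −1.43), and of the gene-body peaks 35 of 105 (33.3%) against 68.8% (−35.4 points, −49.4 to −18.4). Outside genes the count was 57 of 91 (62.6%) against 75.5% (−12.9 points, −25.6 to 0.413, which includes 0), and on sequence without annotation 15 of 28 (53.6%) against 95.8% (−42.3 points, −60.2 to −23.8). The pooled excess goes with the smaller share of start-site peaks among the 413. Family shares were 29.7% in peaks found only in the control, 30.9% in peaks shared with DHX9 knockdown only, 29.5% in peaks shared with the control only, 17.9% in peaks of all 3 lists and 4.98% in peaks found only under DHX9 knockdown, so the 28.3% is not particular to the U2AF1-only peaks. With all family peaks left out of both groups, a choice made after the data were seen, start sites held 63.3% of 283 U2AF1-only peaks and 96.3% of 1017 others, a difference of −33.0 points (−38.9 to −27.4), and gene bodies 24.7% and 1.47%. At least 50% of the 32-base words had a second copy in the reference in 185 of the 413 peaks (44.8%) and in 22.6% of the others. By location the shares were 13.2% against 10.2% at start sites, 63.8% (67 of 105) against 36 of 48 peaks in gene bodies, 76.9% against 84.0% outside genes and 82.1% against 97.2% on sequence without annotation, so the U2AF1-only peaks had the lower share everywhere but at start sites. How reads with several matching places were handled is not given in the sources used here, and its part in these counts was not tested.

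The families did not run alike across the 3 lists. The GC-rich 49 bp family counted 31 peaks under U2AF1 knockdown, 25 under DHX9 knockdown and 1 in the control, at 47 loci. Of its 31 U2AF1 peaks, 22 were U2AF1-only and 9 overlapped a DHX9 knockdown peak; 15 of its DHX9 peaks were found in that list only. The 22 had a median fold of 4.58 and a median of 13.5 fragments over a background of 2.06, close to the lowest in the list, and a median GC content of 81.0%. Of the 22, 16 were intronic, among them peaks in LCOR, NBAS, SENP7, SESN1, TULP4, PDE11A, CDK5RAP2, CAB39L and OR6J1. The family made up 1.79% of the U2AF1 list, 0.563% of the DHX9 list and 0.0363% of the control list.

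The largest centromeric family ran the other way, with 138 control, 47 U2AF1 knockdown and 16 DHX9 knockdown peaks at 170 loci. Of its U2AF1 peaks 25 were U2AF1-only, 12 of them on chromosome 1 and 7 on chromosome 19, with a median GC of 38.7%. Another centromeric family had 23 control, 13 U2AF1 knockdown and 4 DHX9 knockdown peaks, of which 6 were U2AF1-only. The last had 42, 5 and 6 in the same order, and all 5 U2AF1 peaks were U2AF1-only while the control peaks lay at other copies. A peak on such an array can thus be U2AF1-only although neighbouring copies carried control peaks.

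Smaller families were missing from the control list. A 26 bp tandem repeat had 13 peaks in each knockdown list and 0 in the control list, and 7 of the 13 were U2AF1-only. The 40 bp repeat of TTC34 and of an alternate sequence of chromosome 1 had 8 U2AF1 knockdown, 4 DHX9 knockdown and 0 control peaks, with 6 U2AF1-only. A family with a repeat spacing of 2523 to 2538 bp had 7, 6 and 0 peaks, with 4 U2AF1-only. These 4 lay on chromosome 19 at separate sites within long noncoding RNA genes, in ENSG00000267053 (from chr19:36294109) and in ENSG00000267605 (from chr19:37291751). The lists were called separately and depth differs between them by an unknown amount, so an absent peak is a peak that was not called. Finally, 10 U2AF1-only peaks belonged to a family placed on an unlocalised contig, at DUX4 and on chromosomes Y and 5 of the reference. They had low folds (1.44 to 2.55) but a median −log10 q of 9.22. Their median pileup was 194.5 fragments over a background of 108.8, so the high significance went with deep background signal. A median of 63.6% of their 32-base words had a second copy in the reference, so their reads could come from other loci. A further 9 belonged to a mixed family that included the 5S ribosomal RNA array of chromosome 1, with peaks beside RNA5S5, RNA5S7, RNA5S9 and RNA5S14 at folds of 1.94 to 2.88, each with a DHX9 knockdown peak within 360 bp.

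**Figure D4:**
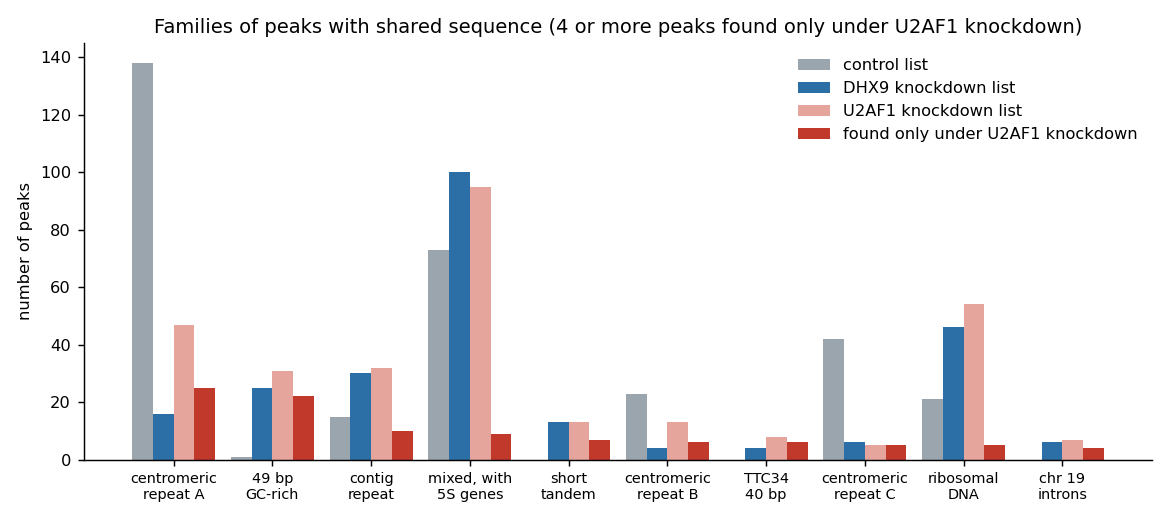
Number of peaks in each list for the 10 families of shared sequence with 4 or more peaks found only under U2AF1 knockdown. The 49 bp GC-rich family had 1 control, 25 DHX9 knockdown and 31 U2AF1 knockdown peaks, and the largest centromeric family had 138, 16 and 47.

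Base composition followed location. The median GC content around the summit was 66.7% in the 413 peaks (quartiles 55.7 and 74.0) and 72.3% in the others (65.3 and 76.7). Within locations the U2AF1-only peaks had medians of 73.0% at start sites, 63.3% in gene bodies, 47.3% outside genes and 58.8% on unannotated sequence, where the others had 73.0%, 68.5%, 42.5% and 67.3%. The ratio of observed to expected CpG had a median of 0.637 against 0.916 over all locations, and 0.881 against 0.922 at start sites.

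**Figure D5:**
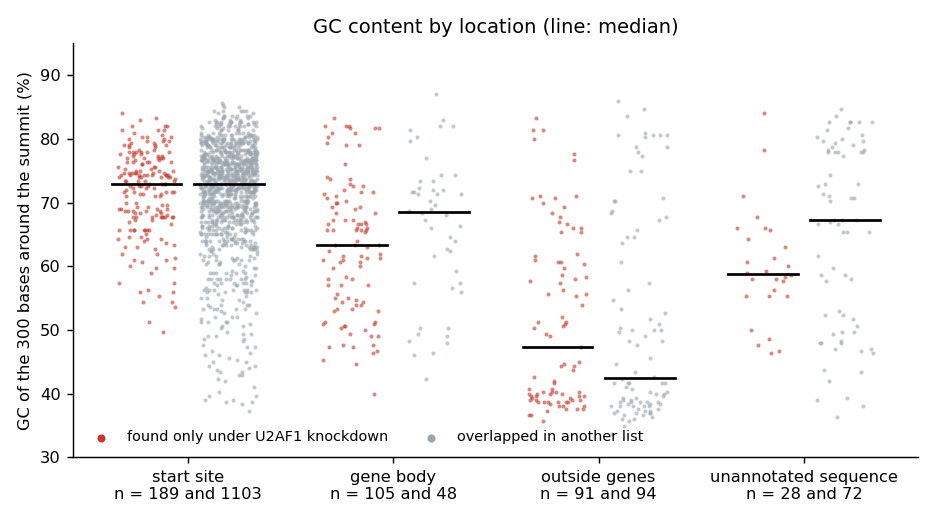
GC content of the 300 bases around each summit by location, for peaks found only under U2AF1 knockdown (red) and the other peaks of the list (grey), with medians as lines. At start sites both medians are 73.0%, and outside genes they are 47.3% and 42.5%.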

How the data were processed

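POLR2A ChIP-seq peaks of HEK293T cells were used, 1 list for each of 3 conditions with 2 ChIP replicates and 1 input each. The names of the control peaks carry a suffix that may mean replicate 1, so whether that list rests on 1 library was not settled. The submitters' processing notes name Bowtie2 2.4.5, MACS2 2.2.7.1, deepTools 3.5.1 and build hg38, without their roles or settings. The deposited fold enrichment is the authors' ratio of signal to background at the summit. The deposited significance values are the authors' −log10 p and −log10 q. The total depth of the libraries is unknown.

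Overlap (at least 1 base), location (GENCODE version 44), base composition, motifs, copies of 32-base words in the reference without alternate sequences, sequence families and pileups were computed in Python 3.11.15 with numpy 2.4.6, pandas 2.3.3, scipy 1.17.1, statsmodels 0.14.6 and networkx 3.6.1, and the functions were tested on simulated data. Peak positions were checked against a GRCh38 reference, where 0 peaks lay outside the sequences. Shares carry 95% Wilson intervals and their differences 95% Newcombe intervals. No test was run across peaks, which are not replicates. The peaks, the gene lists and the rule for named peaks were chosen with earlier results of these data known. The rule named the 12 highest-fold peaks at protein-coding starts, the 10 highest in gene bodies, the 5 highest outside genes, the 5 nearest to another list's peak, the 5 with the smallest overlap, and peaks at genes of lists with 5 or fewer. BRSK2, MTA1, the further genes of the GC-rich family, the peaks of the chromosome 19 array and those at 5S genes were named after their values were seen. The share of soft-masked bases was not analysed here. Some named peaks and sequences are not reported here.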

Additional observations from a re-analysis of the deposited data

How the results depend on the processing

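No paired analysis was possible because the deposited peaks form a single list for each condition, and for the same reason no replicate could be left out. Restricting the U2AF1 knockdown list to −log10 q of at least 5 left 128 U2AF1-only peaks, 114 of them on annotated sequence beside 841 others there. Of these peaks 21.1% were in gene bodies, with a median fold of 5.15, a median GC of 69.5%, 17 with another list's peak within 1000 bp and 37.5% in families. With that minimum in all 3 lists there were 203, because weaker control and DHX9 knockdown peaks no longer counted as overlaps. On annotated sequence these were 183 beside 772 others. They had 61.2% at start sites, 17.5% in gene bodies, a median fold of 5.15, a median GC of 71.0% and 36.0% in families. Requiring 50% of the shorter peak to be covered gave 68 peaks with a neighbour within 1000 bp, and counting peaks within 500 bp as shared gave 11. With protein-coding genes only, 43.4% were at start sites, 18.7% in gene bodies and 37.9% outside genes. Without family peaks, an alternative added after the data were seen like the 2 that follow, 63.3% were at start sites and 12.01% outside genes, the median fold was 4.20, the median GC 68.2% and 26 had such a neighbour. Linking families by 10 or 60 shared words gave 33.4% and 23.5% of peaks in families. Over the rules of overlap, threshold and sequences, the start-site share of U2AF1-only peaks stayed below that of the other peaks, by 28.4 to 42.2 points. Under each rule the other peaks were again those counted as shared with the control or DHX9 knockdown list. The remaining 35 of 59 values stayed within their interval or within 1.5 times the count. For the stricter thresholds fewer peaks entered by construction, and the cause of the other shifts was not tested. Pileups of about 16 fragments limit the precision of a single peak through counting error, and the spread between replicates was not measured.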

Other observations

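The share of a chromosome's peaks that were found only under U2AF1 knockdown had a 95% Wilson interval that included the 23.9% of the whole list on 22 of 24 chromosomes. The exceptions were chromosome 17, with 11.9% (15 of 126; 7.35 to 18.7), and chromosome X, with 16 of 40 (26.3 to 55.4%).

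At the loci of the 3 proteins the labels name, all lists held a peak. U2AF1 had a fold of 6.79 in the control list, 5.81 at 1 of its 2 peaks under U2AF1 knockdown and 4.48 under DHX9 knockdown. DHX9 had folds of 4.47, 6.03 and 4.81, and POLR2A 19.5, 8.43 and 19.6. Folds of separate lists are not on 1 scale, and no peak at these genes was U2AF1-only.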
